A study of Homo sapiens with 6 samples.

Results

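The genes examined here are those whose symbol is CD followed by a number, with or without further letters. Of 14884 named genes measured on the arrays, 71 carry such a symbol. The antisense RNA gene CD27-AS1 and the pseudogene CD99P1 were left out, and where a gene had several probe sets the one with the highest mean was read. The 6 arrays are of U-2 OS, an established human osteosarcoma line. All cells had been infected with a retroviral vector, kept for 3 days in puromycin at 5 µg/ml and collected 4 days after infection. On 3 arrays the vector carried wt-progerin, the shortened and permanently farnesylated lamin A of Hutchinson-Gilford progeria. On the other 3 it carried S22A-progerin, in which serine 22 is replaced by alanine, so both groups express progerin and the comparison asks what the loss of that phosphorylation site changes. Cells without progerin were not analysed here.

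CD numbers were given to cell surface molecules in the order in which panels of monoclonal antibodies defined them, mostly on white blood cells. The name says nothing of function: the set spans antigen receptors and their helpers, costimulatory and inhibitory ligands, scavenger receptors, tetraspanins (small membrane organisers that span the membrane several times) and adhesion molecules. Many are restricted to blood cells, while others, such as CD44, CD9, CD63 and CD99, are found on most cells, connective tissue tumours included. CD2AP and CD2BP2 are intracellular proteins named after their binding to CD2 and are kept because their symbols meet the rule.

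In S22A-progerin cells 15 of the 71 genes were higher and 4 were lower than in wt-progerin cells, and 52 did not pass the test (limma, adjusted p under 0.05 over all 14884 genes). The largest rises were in CD163L1, a scavenger receptor, 2.83-fold, and CD68, a membrane protein of lysosomes and a standard macrophage marker, 2.79-fold. CD22, CD96 and CD180, receptors of B, T and natural killer cells, rose 2.47-fold, 2.44-fold and 2.39-fold. CD200, an inhibitory ligand, fell 1.74-fold, the largest fall. Over all genes tested 25.4% passed, 10.8% as higher and 14.6% as lower, while among the CD-numbered genes 26.8% passed, 21.1% as higher and 5.63% as lower. The share that passed was thus near that of all genes, with a different split between rises and falls. These shares are counts, and the set as a whole was not tested. The median difference was 0.09 on the log2 scale over the 71 genes and -0.00367 over all genes. Differences are given in log2 units as S22A-progerin less wt-progerin, with n = 3 arrays per group.

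Across genes, which are not independent replicates, the correlation of 2 arrays ran from 0.996 to 0.997 among wt-progerin arrays, from 0.994 to 0.996 among S22A-progerin arrays and from 0.983 to 0.985 between groups. LMNA, which encodes both lamin A and progerin, stood at 8.17, 8.15 and 8.10 on the wt-progerin arrays and at 8.31, 8.26 and 8.29 on the S22A-progerin arrays, a difference that did not pass (0.15, adjusted p = 0.0796). The series describes the replicates of a condition as independent, and the p-values rest on the spread among these 6 arrays. Of 14 listed markers of osteoblasts and mesenchyme 7 were measured. In wt-progerin FN1, VIM and RUNX2 were read at means of 12.50, 10.89 and 8.77, and PRRX1 and TWIST1 at 6.89 and 4.93. IBSP and SP7, genes of osteoblasts, were at 3.86 and 6.25. No detection call was used, so a low reading cannot be told from absence, and a fold from a low reading is compressed. An expression value of a bulk sample also cannot tell more RNA per cell from more cells that express the gene.

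The share of genes that passed differed with expression level. When all tested genes were split into tertiles by mean over the 6 arrays, 35 of the CD-numbered genes lay in the low tertile, 22 in the middle and 14 in the high one. In the low tertile 2 rose and none fell, so that 5.71% passed, beside 10.3% of all genes there (6.71% higher and 3.55% lower). In the middle tertile 8 rose and 3 fell, 36.4% and 13.6%, so that 50% passed, beside 26.1% of all genes (11.3% higher and 14.8% lower). In the high tertile 5 rose and 1 fell, 35.7% and 7.14%, so that 42.9% passed, beside 39.8% of all genes (14.2% higher and 25.6% lower). In both upper tertiles the share of rises was above that of all genes. At a fold of at least 1.5 the counts were 9 higher and 1 lower of 71, beside 2.76% and 3.04% of all genes. At a fold of at least 2 they were 5 higher and 0 lower, beside 1.02% and 0.511% of all genes.

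**Figure D1:**
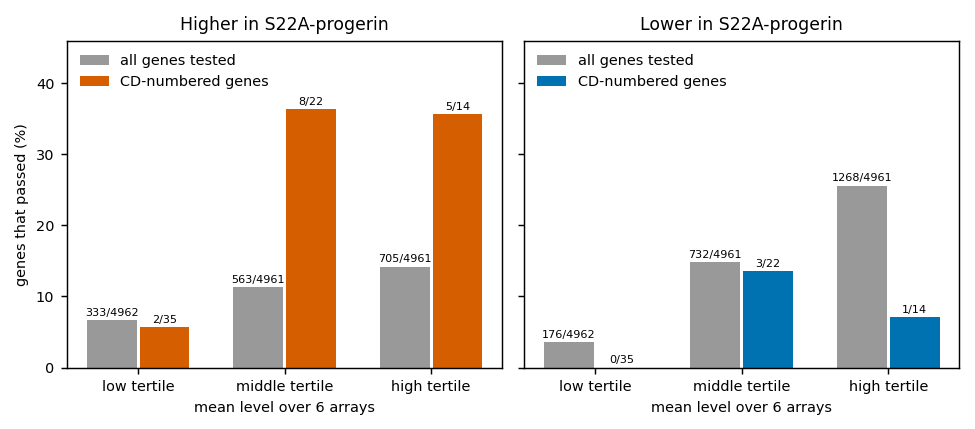
Share of genes that passed the test (adjusted p under 0.05) in each tertile of mean level, in percent, for all 14884 genes (grey) and the 71 CD-numbered genes (colour), with counts over the bars. Rises stand at 36.4% and 35.7% of the CD-numbered genes in the middle and high tertiles, beside 11.3% and 14.2% of all genes.

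The groups were fully separated in 29 of the 71 genes (40.8%), near the 42.1% of all genes. All 19 genes that passed were among these 29. The other 10, which did not pass, were CD5L, CD47, CD1A, CD300E, CD300C, CD101 and CD177 with S22A-progerin above, and CD2AP, CD151 and CD99 with S22A-progerin below. Closest to the threshold, CD34 (adjusted p = 0.0393) and CD72 (adjusted p = 0.0318) passed, while CD5L (adjusted p = 0.0588) and CD226 (adjusted p = 0.0675) did not.

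**Figure D2:**
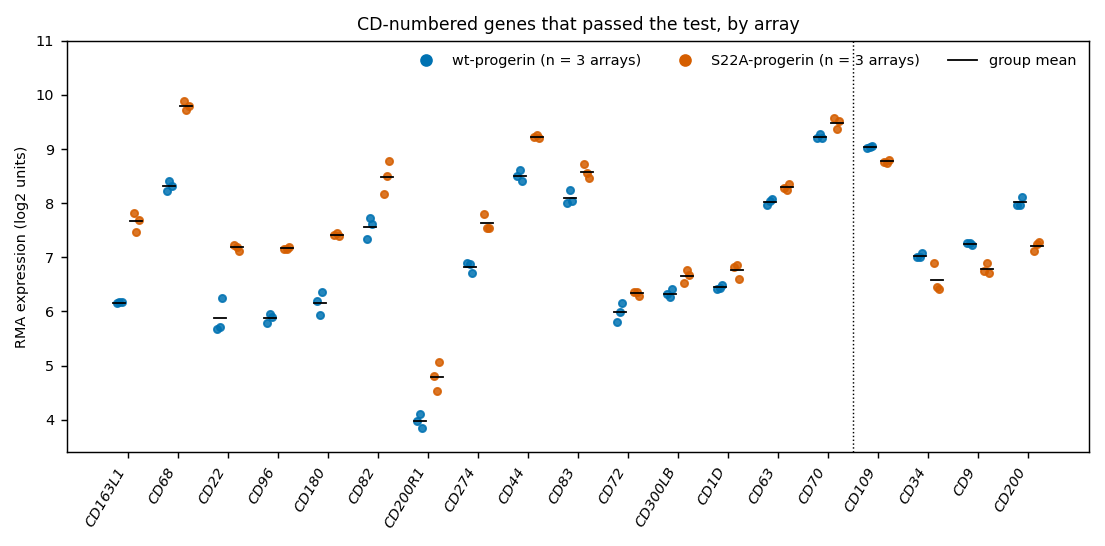
RMA expression in log2 units of the 19 CD-numbered genes that passed, each point an array and each bar a group mean, with genes ordered by difference and the 4 that fell to the right of the dotted line. The groups do not overlap in any of them, and CD163L1 and CD68 show the widest separation.

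The promoters of the 5 genes with the largest rises and of CD200 are shown to give the sequence in front of the genes on which the comparison turns. Each is the 250 bases before the transcription start in RefSeq on build GRCh38.p14, written 5′ to 3′ along the gene. Capitals mark matches, on either strand, to the AP-1 motif TGANTCA, the ETS motif GGAAGT, the GC box GGGCGG or the TATA box TATAAA.
CD68, chr17:7579388-7579637, forward strand: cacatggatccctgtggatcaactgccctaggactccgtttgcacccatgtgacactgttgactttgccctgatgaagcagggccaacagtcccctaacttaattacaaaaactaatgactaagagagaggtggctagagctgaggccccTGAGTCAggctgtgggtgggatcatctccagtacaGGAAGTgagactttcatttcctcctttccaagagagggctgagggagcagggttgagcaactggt
CD163L1, chr12:7444154-7444403, reverse strand: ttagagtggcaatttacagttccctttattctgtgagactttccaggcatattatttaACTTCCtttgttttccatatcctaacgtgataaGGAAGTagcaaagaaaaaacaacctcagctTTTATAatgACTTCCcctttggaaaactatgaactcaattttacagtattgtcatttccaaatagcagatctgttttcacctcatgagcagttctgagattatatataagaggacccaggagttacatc
CD22, chr19:35328937-35329186, forward strand: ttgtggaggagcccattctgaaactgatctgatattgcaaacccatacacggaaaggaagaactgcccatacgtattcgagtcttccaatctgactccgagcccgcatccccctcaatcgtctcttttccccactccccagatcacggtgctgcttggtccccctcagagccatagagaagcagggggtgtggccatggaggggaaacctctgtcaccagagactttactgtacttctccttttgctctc
CD96, chr3:111541947-111542196, forward strand: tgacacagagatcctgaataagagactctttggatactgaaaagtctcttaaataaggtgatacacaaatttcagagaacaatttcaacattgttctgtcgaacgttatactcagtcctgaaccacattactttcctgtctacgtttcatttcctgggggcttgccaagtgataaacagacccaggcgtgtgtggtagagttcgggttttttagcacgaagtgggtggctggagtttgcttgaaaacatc
CD180, chr5:67196800-67197049, reverse strand: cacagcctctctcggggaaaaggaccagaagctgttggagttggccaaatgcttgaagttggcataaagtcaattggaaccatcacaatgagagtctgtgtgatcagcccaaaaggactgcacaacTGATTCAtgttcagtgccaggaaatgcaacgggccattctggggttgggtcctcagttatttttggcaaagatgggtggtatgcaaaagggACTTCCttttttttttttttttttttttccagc
CD200, chr3:112332906-112333155, forward strand: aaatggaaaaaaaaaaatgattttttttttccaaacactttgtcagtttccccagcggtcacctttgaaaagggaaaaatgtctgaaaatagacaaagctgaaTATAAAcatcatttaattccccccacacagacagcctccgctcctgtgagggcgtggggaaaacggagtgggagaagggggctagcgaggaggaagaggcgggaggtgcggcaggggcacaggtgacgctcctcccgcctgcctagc

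CD68 holds an AP-1 match 100 to 94 bases before the start and an ETS match 65 to 60 bases before it. CD163L1 holds 3 ETS matches and a TATA box match on the opposite strand. CD180 has an AP-1 match at 124 to 118 and an ETS match, on the reverse strand, at 33 to 28. No match to these 4 motifs lies in the windows of CD22 and CD96, and in that of CD200 there is a TATA box match at 147 to 142. None of the 6 windows holds a GC box. A match is a description of letters, not of a bound site.

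RefSeq windows were at hand for 52 of the 71 genes, 15 of them with several start sites, which gives those genes more chances to match. An ETS match stood before 8 of the 14 genes that rose and have a window (CD163L1, CD180, CD300LB, CD44, CD63, CD68, CD72 and CD83), before 2 of the 4 that fell (CD109 and CD9) and before 12 of the 34 that did not pass. Among all 27305 genes with a window, 23% had one. An AP-1 match stood before CD180, CD63 and CD68, 3 of the 14, and before 4 of the 34, with 8.06% over all genes. The NF-kB consensus matched in front of CD63 and CD83, 2 of the 14, and 5 of the 34, with 11.8% over all genes. E-box matches (CACGTG) stood before CD63 alone of the 14, and 7.73% of all genes had one. A GC box stood before 5 of the 14 and 13 of the 34, with 46.2% over all genes. The median GC content of the windows was 52.2% for the 52 genes and 58% for all genes.

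Among scavenger and lysosomal receptors 2 of 7 measured genes rose and none fell, so that 28.6% passed, beside 25.4% of all genes. CD68, whose heavily glycosylated protein lies mostly in late endosomes and lysosomes, stood at 8.22, 8.41 and 8.32 on the wt-progerin arrays and at 9.88, 9.72 and 9.79 on the S22A-progerin arrays. The lowest S22A-progerin array lay 1.31 above the highest wt-progerin array. The difference was 1.48 (SE 0.0712, 95% interval 1.31 to 1.65, adjusted p = 3.25e-05). CD163L1, a relative of the haemoglobin scavenger CD163 with a chain of scavenger receptor cysteine-rich domains, was read at 6.15, 6.17 and 6.17 and at 7.82, 7.46 and 7.70. The wt-progerin arrays were almost level, with an SD of 0.0112, while those of S22A-progerin had an SD of 0.183, and the gap between the groups was 1.29. The difference of 1.501 (SE 0.0925, 95% interval 1.28 to 1.72) had an adjusted p of 8.07e-05.

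CD163 itself, the closest tested gene on one side of CD163L1 on chromosome 12, did not pass (0.05, SE 0.139). It had means of 4.62 and 4.66. CD209, a lectin of dendritic cells, differed by 0.24 and CD36, a receptor for oxidised lipids and thrombospondin, by 0.23, and neither passed, nor did CD164L2 (-0.02). CD320, which takes up vitamin B12 bound to transcobalamin, stood at 9.56, 9.67 and 9.65 on the wt-progerin arrays and at 9.31, 9.30 and 9.83 on the S22A-progerin arrays. S22A-progerin replicate 3 thus stood above every other array while its 2 companions stood below. The difference of -0.14 did not pass, and without that array it was -0.32, with a limma adjusted p of 0.0139. Here and below, where a gene did not pass, the array left out was picked because leaving it out changed the call. Such an adjusted p is therefore not support for a difference.

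Of 18 costimulatory and inhibitory molecules, 4 rose, 1 fell and 13 did not pass (27.8% passed, beside 25.4% of all genes). CD96, a receptor of T and natural killer cells that binds nectin-like proteins, stood at 5.79, 5.95 and 5.91 on the wt-progerin arrays and at 7.16, 7.16 and 7.19 on the S22A-progerin arrays. Its S22A-progerin arrays had an SD of 0.0157, and the groups lie 1.20 apart. The difference was 1.28 (SE 0.0604, adjusted p = 2.89e-05). CD226, an activating receptor that shares the ligand PVR with CD96, had values of 5.73, 5.76 and 5.49 and of 5.31, 5.50 and 5.34, which overlap. Its difference of -0.28 did not pass with 6 arrays, and without wt-progerin replicate 3 it was -0.36 (limma adjusted p = 0.0302). PVR (-0.11) and NECTIN1 (-0.06), ligands of CD96, did not pass either.

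CD274, known as PD-L1, the ligand that restrains T cells through PD-1, stood at 6.89, 6.88 and 6.71 on the wt-progerin arrays and at 7.80, 7.55 and 7.54 on the S22A-progerin arrays. The groups lie 0.653 apart. It rose by 0.80 (SE 0.0907, adjusted p = 9.07e-04), 1.75-fold. PDCD1LG2, the gene of the other PD-1 ligand and its nearest tested neighbour on chromosome 9, rose by 0.25 (SE 0.0714, adjusted p = 0.0388), from 7.56, 7.67 and 7.62 to 7.97, 7.90 and 7.75. CD276, another B7 family molecule, had means of 8.40 and 8.37, and CD80 (0.13) and CD86 (-0.13), the B7 ligands of CD28, did not pass.

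CD200, a membrane glycoprotein that quiets myeloid cells, and its receptor gene moved in opposite directions. CD200 stood at 7.97, 7.97 and 8.11 on the wt-progerin arrays and at 7.11, 7.24 and 7.29 on the S22A-progerin arrays, 0.678 apart. It fell by 0.80 (SE 0.0704, 95% interval -0.97 to -0.64, adjusted p = 3.14e-04). CD200R1, the receptor, was read at 3.98, 4.11 and 3.84 and at 4.80, 4.53 and 5.06. It rose by 0.82 (SE 0.137, adjusted p = 0.00509) with no overlap, though its wt-progerin mean lay at percentile 5.44 of all genes. CD200R1L, a relative of that receptor gene close to it on chromosome 3, differed by 0.04 and did not pass.

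CD70, the ligand of CD27, stood at 9.21, 9.27 and 9.21 on the wt-progerin arrays and at 9.57, 9.37 and 9.51 on the S22A-progerin arrays. It rose by 0.26 (SE 0.0676, adjusted p = 0.031), with 0.0958 between the groups, and did not pass with each array centred on its median (0.22, adjusted p = 0.0662). CD27 had means of 5.76 and 5.77. CD47, the signal that holds back phagocytes, had means of 8.75 and 8.98 and did not pass (0.22, SE 0.0931, adjusted p = 0.131), while SIRPA, the gene of its receptor, fell by 0.46 (SE 0.0533, adjusted p = 9.67e-04). CD48, a ligand of natural killer cell receptors, differed by 0.29 with an SE of 0.214 and did not pass. CD28, CD58, CD84, CD101, CD160 and CD200R1L lay between -0.04 and 0.17, none of them past the threshold.

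CD180, a Toll-like receptor relative of B cells, stood at 6.19, 5.94 and 6.35 on the wt-progerin arrays and at 7.41, 7.45 and 7.40 on the S22A-progerin arrays. The S22A-progerin arrays had an SD of 0.0268, and the gap between groups was 1.04. It rose by 1.26 (SE 0.103, adjusted p = 2.43e-04). LY86, whose product MD-1 pairs with CD180, was read at 5.69, 5.56 and 5.37 and at 5.29, 5.47 and 5.34 and did not pass (-0.17, adjusted p = 0.235). The corresponding pair of the lipopolysaccharide receptor, TLR4 and its partner LY96 (MD-2), both rose. TLR4 went from 8.75, 8.80 and 8.84 to 10.14, 10.17 and 10.12, 2.55-fold (SE 0.0523 in log2 units, adjusted p = 1.37e-05). LY96 went from 6.56, 6.68 and 6.52 to 8.81, 8.84 and 8.51, 4.40-fold (adjusted p = 2.78e-05). CD14, which hands lipopolysaccharide to that complex, had means of 5.59 and 5.77 and did not pass (0.18, SE 0.0907).

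**Figure D3:**
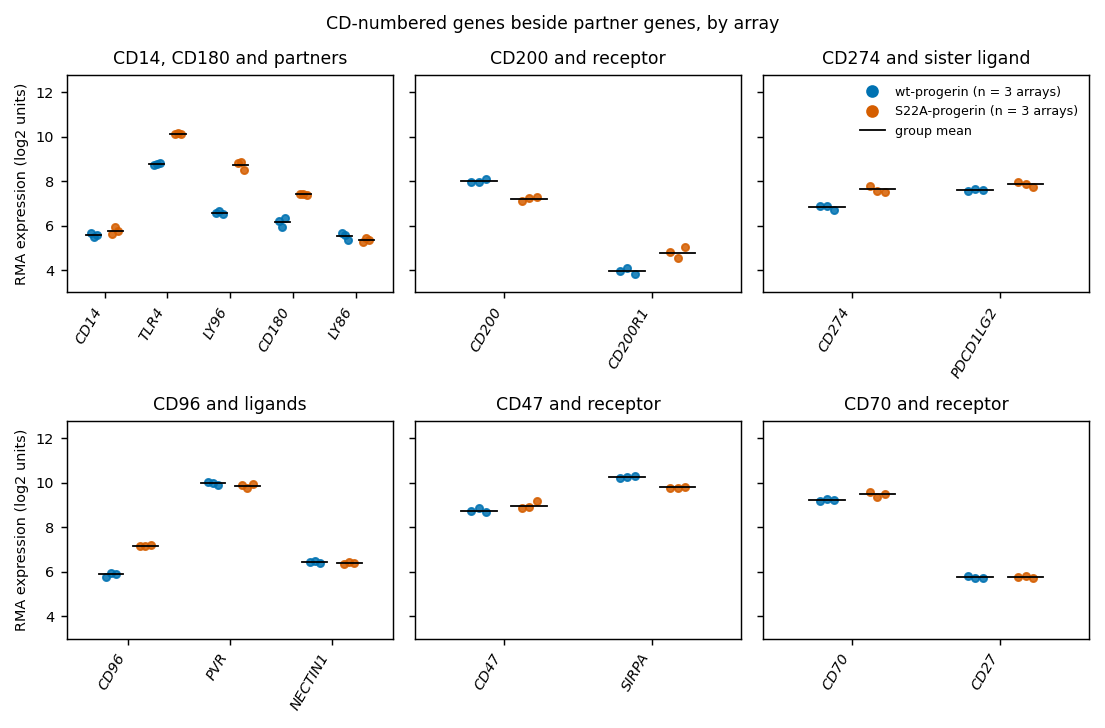
RMA expression in log2 units of 6 groups of genes made of CD-numbered genes and their ligands, receptors or sister genes, each point an array and each bar a group mean. TLR4 and LY96 are higher in S22A-progerin while CD14 and LY86 overlap between groups, and CD200 is lower while CD200R1 is higher.

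Of 32 such partner genes listed for the CD molecules, 24 had a reading. Of these 8 (33.3%) were called higher, 1 (4.17%) lower and 15 missed the threshold (median 0.01). Over all genes 10.8% were higher and 14.6% lower. The list was chosen with earlier results of these data known, so these shares are a description and not a test of partner genes. HAVCR2, the inhibitory receptor TIM-3, rose by 0.59 (SE 0.0628, adjusted p = 7.24e-04). TRAF1 (0.49) and TRAF3 (0.29), adaptors of receptors such as CD40, ICOSLG (0.37), the ligand of the T cell costimulator ICOS, and IGFBP7 (0.36) rose as well. CD40 and CD40LG were not analysed here.

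Of 7 CD-numbered tetraspanins, 2 rose, 1 fell and 4 did not pass (42.9% passed, beside 25.4% of all genes). CD82, known as a suppressor of metastasis, stood at 7.34, 7.73 and 7.61 on the wt-progerin arrays and at 8.17, 8.50 and 8.78 on the S22A-progerin arrays. The groups have SDs of 0.197 and 0.308 and do not overlap. It rose by 0.92 (SE 0.165, 95% interval 0.53 to 1.31, adjusted p = 0.00656), 1.90-fold. CD63, a tetraspanin of late endosomes, lysosomes and exosomes, went from 7.97, 8.04 and 8.07 to 8.28, 8.24 and 8.36, a rise of 0.27 (SE 0.0583, adjusted p = 0.0153).

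CD9, a tetraspanin of the plasma membrane and of exosomes, stood at 7.26, 7.25 and 7.22 on the wt-progerin arrays and at 6.75, 6.90 and 6.71 on the S22A-progerin arrays. It fell by 0.46 (SE 0.0639, adjusted p = 0.00229), and the groups lie 0.326 apart. CD81 had means of 7.70 and 7.71, with a 95% interval of the difference from -0.13 to 0.15, and CD151, which holds laminin-binding integrins, had means of 9.69 and 9.61. CD37, a tetraspanin of B cells, differed by 0.02. CD53, a tetraspanin of leukocytes, was read at 5.60, 5.65 and 5.55 and at 6.24, 6.12 and 5.64. S22A-progerin replicate 3 lay among the wt-progerin arrays there, and the difference of 0.40 did not pass (adjusted p = 0.0938). Without that array, picked after its value was seen, it was 0.58 (limma adjusted p = 0.00273), which is not support for a difference.

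Among the 25 tetraspanins read under other names, 4 rose, 4 fell and 17 did not pass (32% passed, median 0.07). TSPAN1 rose by 1.02 (SE 0.116) and TSPAN11 by 0.46, while TSPAN2 fell by 0.64 (SE 0.0687). TSPAN3 fell by 0.30 but did not pass with its probe sets averaged (-0.08, adjusted p = 0.516). Rises made up 28.6% and falls 14.3% of the 7 CD-numbered tetraspanins, and 16% each of the 25 others. Over all genes 10.8% rose and 14.6% fell, so movement in both directions is not particular to tetraspanins.

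Of 6 adhesion and stromal molecules 1 rose, 2 fell and 3 did not pass. The 50% that passed stand beside 39.8% of all genes in the high tertile, where the group's median level of 8.46 lay. CD44, the main receptor for hyaluronan and a common surface marker of mesenchymal cells, stood at 8.50, 8.60 and 8.41 on the wt-progerin arrays and at 9.21, 9.27 and 9.20 on the S22A-progerin arrays, 0.594 apart. It rose by 0.72 (SE 0.0657, 95% interval 0.57 to 0.88, adjusted p = 3.57e-04), 1.65-fold. CD109, a protein with a lipid anchor that binds TGF-beta, was read at 9.02, 9.04 and 9.06 and at 8.77, 8.75 and 8.79. It fell by 0.27 (SE 0.0489, adjusted p = 0.00686), the groups having SDs of 0.0181 and 0.0223. Its other probe set, at a lower level, differed by -0.05 (adjusted p = 0.795), and with both averaged CD109 did not pass (-0.16, adjusted p = 0.146).

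CD34, a sialomucin of blood progenitors and endothelium, stood at 7.010, 6.999 and 7.085 on the wt-progerin arrays and at 6.89, 6.46 and 6.41 on the S22A-progerin arrays. It fell by 0.45 (SE 0.126, adjusted p = 0.0393), with S22A-progerin replicate 1 only 0.109 below the lowest wt-progerin array. CD99, a glycoprotein used to stain small round cell sarcomas, had means of 10.44 and 10.27. Its groups did not overlap, and the difference of -0.16 (SE 0.0545) had an adjusted p of 0.0695. CD99L2 (-0.04) and CD24 (0.20) did not pass.

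Of the CD antigens of stromal cells that go by other symbols, 2 of 17 measured rose, 5 fell and the other 10 did not pass (median -0.06). Rises made up 11.8% and falls 29.4%, so that 41.2% passed. The list's median level of 8.50 lay in the high tertile. There 39.8% of all genes passed, 14.2% as higher and 25.6% as lower, so the list was near the share at its level. ENG, or CD105, a TGF-beta coreceptor, rose by 0.80 (SE 0.072, adjusted p = 3.44e-04), from 8.84, 8.83 and 8.66 to 9.54, 9.66 and 9.53. The peptidase gene DPP4, or CD26, rose by 0.65. The neural adhesion molecule genes L1CAM (-0.94, SE 0.0836, adjusted p = 3.35e-04) and NCAM1 (-0.86, SE 0.0716, adjusted p = 2.57e-04) fell. MCAM (-0.55, SE 0.0513), an adhesion molecule of pericytes and melanoma, THY1 (-0.32), or CD90, and EPHB4 (-0.30), an ephrin receptor on the list without a CD number, fell too.

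In a group of antigen receptor parts and coreceptors of lymphocytes, which also took in CD5L, a protein of another kind, 2 of 11 rose and none fell. The share that passed was 18.2%, beside 25.4% of all genes. Both that rose are inhibitory receptors of B cells. CD22, a lectin for sialic acid that dampens B cell receptor signals, stood at 5.67, 5.71 and 6.26 on the wt-progerin arrays and at 7.23, 7.20 and 7.12 on the S22A-progerin arrays. The wt-progerin array of replicate 3 was high within its group, yet 0.866 below the lowest S22A-progerin array. It rose by 1.30 (SE 0.151, 95% interval 0.95 to 1.66, adjusted p = 0.00102). MAG, the adjacent gene on chromosome 19 and another sialic acid lectin, rose by 0.37 (SE 0.107, adjusted p = 0.043). CD72 was read at 5.799, 5.997 and 6.162 and at 6.37, 6.37 and 6.29, and rose by 0.35 (SE 0.0939, adjusted p = 0.0318). CD5L, a secreted scavenger receptor protein of macrophages, differed by 0.29 and did not pass with 6 arrays, but did without wt-progerin replicate 1 (0.38, limma adjusted p = 0.0225). The T cell genes CD2, CD4, CD6, CD7, CD8A, CD8B and CD247 lay between -0.14 and 0.11 and did not pass, nor did CD5 (0.20, adjusted p = 0.0885).

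Among 12 receptors of myeloid cells and of activation 2 rose and none fell (16.7% passed, beside 25.4% of all genes). CD83, a marker of mature dendritic cells, stood at 8.01, 8.23 and 8.04 on the wt-progerin arrays and at 8.72, 8.55 and 8.47 on the S22A-progerin arrays. It rose by 0.49 (SE 0.0907, adjusted p = 0.00766). CD300LB, an activating receptor of myeloid cells, went from 6.32, 6.26 and 6.41 to 6.53, 6.76 and 6.68, a rise of 0.33 (SE 0.0764, adjusted p = 0.0192). The other 6 measured genes with a CD300 symbol, all on chromosome 17, lay between -0.15 and 0.19 and did not pass. CD52 (0.25), a short glycoprotein of lymphocytes, did not pass with 6 arrays, but did without S22A-progerin replicate 3 (0.34, limma adjusted p = 0.0313). CD38 (0.07), an enzyme that consumes NAD, CD69 (-0.10), an early activation marker of lymphocytes, and CD177 (0.13) of neutrophils did not pass.

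All 5 measured CD1 genes, which present lipid antigens to T cells, had differences above 0, and 1 passed (20%, beside 25.4% of all genes). CD1D stood at 6.42, 6.44 and 6.49 on the wt-progerin arrays and at 6.81, 6.86 and 6.61 on the S22A-progerin arrays, a rise of 0.31 (SE 0.0769, adjusted p = 0.0246). CD1A, CD1B, CD1C and CD1E, all in the low tertile, differed by 0.09 to 0.21 and did not pass. In that tertile 2864 of 4962 genes had differences above 0. CD93, the 1 measured gene of the complement group, did not pass (0.08), and CD46, CD55 and CD59 were not analysed here. CD2AP, a cytoskeletal adaptor, had means of 11.17 and 11.10, and CD2BP2, a splicing protein, had means of 8.92 and 8.93.

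**Figure D4:**
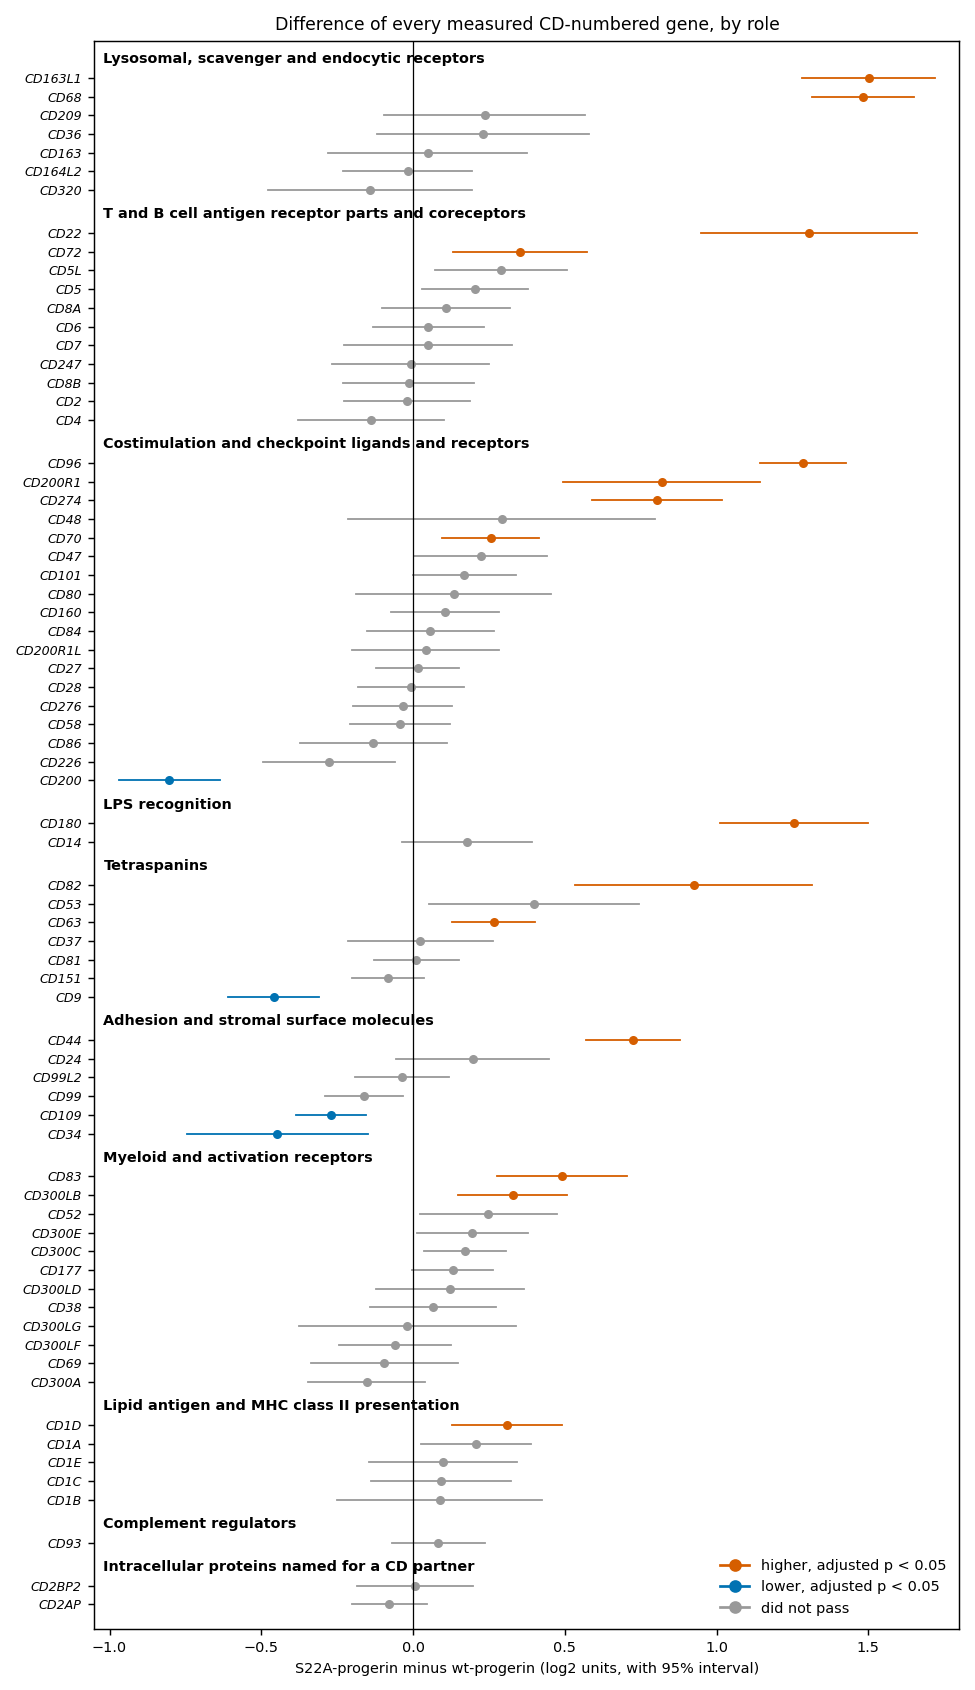
Difference between S22A-progerin and wt-progerin in log2 units for each of the 71 CD-numbered genes, with its 95% interval, grouped by role, with orange for genes that rose, blue for genes that fell and grey for those that did not pass. Costimulatory and inhibitory molecules are the largest group, and 5 of 18 passed (27.8%, beside 25.4% of all genes). The share was 50% of 6 adhesion molecules and 42.9% of 7 tetraspanins, groups with median levels in the high and middle tertiles. Of all genes in those tertiles 39.8% and 26.1% passed. It was also 50% of the 2 genes of lipopolysaccharide recognition. CD163L1 and CD68 lie farthest from 0.

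The calls differed in how firmly they stood. Of the 19, 13 passed with any single array left out. CD63 lost its call without wt-progerin replicate 1 (0.24, limma adjusted p = 0.0614). CD1D lost it without any of 5 arrays, all but S22A-progerin replicate 3 (limma adjusted p 0.058 to 0.0795). CD70 lost it without any of 5, all but S22A-progerin replicate 2 (0.0616 to 0.0984), CD72 without any of 5, all but wt-progerin replicate 3 (0.0548 to 0.0898), and CD34 without any of 5, all but S22A-progerin replicate 1 (0.0849 to 0.119). CD300LB lost it without wt-progerin replicate 1 or 2 or S22A-progerin replicate 2 or 3 (0.0509 to 0.0684). None of these differences changed sign.

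Markers of leukocytes that carry no CD symbol were read for comparison. Of 24 listed, 11 were measured, and 3 (27.3%) rose while none fell. Over all genes 25.4% passed, 10.8% as higher and 14.6% as lower. LAPTM5, a lysosomal protein of blood cells, rose from 7.15, 7.09 and 6.89 to 8.371, 8.004 and 8.387 (1.21, SE 0.121, adjusted p = 5.21e-04). LCP1, the actin bundler L-plastin, rose by 0.83 (SE 0.0848). SPI1 (0.04), the master regulator of myeloid cells, CSF1R (-0.11), the macrophage growth factor receptor, TYROBP (0.17) and LYZ (0.26) did not pass. HCLS1, a signalling adaptor of blood cells, did not pass with 6 arrays (0.29, adjusted p = 0.0566), but did without S22A-progerin replicate 1 (0.36, limma adjusted p = 0.0358). The log2 of the list's summed signal ran from 9.95 to 9.99 in wt-progerin and from 10.44 to 10.53 in S22A-progerin. LCP1, the brightest of the 11, had means of 7.53 and 8.37, while the median difference of the list was 0.17 and 8 did not pass. The pan-leukocyte marker PTPRC (CD45) was not analysed here, and no detection call says which markers are absent. The part of such signal in the CD results was not tested. Of 6 measured endothelial markers 1 rose, CLDN5 (0.29), and PECAM1 (CD31) had means of 5.23 in both groups. The log2 of their summed signal ran from 8.27 to 8.41 in wt-progerin and from 8.45 to 8.56 in S22A-progerin. CLDN5, the brightest of the 6, had means of 6.92 and 7.20, while the median difference of the list was 0.09. Of 5 epithelial markers 1 rose, KRT18 (0.51), and none fell, and their sum ran from 11.64 to 11.73 and from 12.07 to 12.14. These sums add signal before the log, so the brightest gene weighs most. KRT18, the brightest of the 5, had means of 11.42 and 11.94, while the median difference of the list was -0.03. EPCAM did not pass with 6 arrays (-0.28), but did without wt-progerin replicate 3 (-0.39, limma adjusted p = 0.0368). Of 7 measured markers of osteoblasts and mesenchyme, RUNX2 (-0.74) and FN1 (-0.42) fell and PRRX1 (0.28) rose. The sum of the 7 was 13.03 on each wt-progerin array and ran from 12.68 to 12.72 on the S22A-progerin arrays. FN1, the brightest of the 7, had means of 12.50 and 12.07, while the median difference of the list was -0.00222. PRRX1 lost its call without wt-progerin replicate 1 (limma adjusted p = 0.0599) or 3 (0.0748).

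Position in the genome was set beside the changes, using the order of genes in RefSeq. For the 19 genes that passed, the closest tested gene on each side gave 38 positions. Of these 9 (23.7%) passed, near the 25.4% of all genes, 3 in the direction of the CD-numbered gene and 6 in the other. The 3 were MAST4, a kinase gene beside CD180 that rose by 1.06 (SE 0.0882, adjusted p = 2.49e-04), MAG beside CD22 and PDCD1LG2 beside CD274. The 6 were CCNB1 (-0.60), on the other side of CD180, GTPBP8 (-0.30) beside CD200R1 and PLXNA2 (0.90) beside CD34, with 3 more. Those were GDF11 (-0.19) beside CD63, RNF182 (-0.44) beside CD83 and ABHD10 (-0.28) beside CD96. The closest tested gene is not always adjacent: 30 untested genes lay between CD180 and CCNB1, the longest run, and 9 between CD96 and ABHD10. CD96 and CD200 lie on chromosome 3 with 23 genes between them and moved in opposite directions. Of the 5 tested genes between them, C3orf52 rose (0.55) and ABHD10 fell (-0.28). CD163L1 and CD163, with 2 untested genes between them, differed by 1.501 and 0.05.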

How the data were processed

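The authors deposited log2 expression values. RMA and Affymetrix Expression Console are named in the submitters' processing notes. RMA subtracts background, brings the arrays to a common distribution by quantile normalization and combines the probes of a probe set. Versions and build: not given in the sources used here. The number of arrays limits the precision. Values ran from 1.27 to 14.0, and array medians from 6.04 to 6.09. Groups came from the labels. Of 53617 probe sets, 16098 had 1 gene symbol in the platform annotation and 37519 were not named here. A two-sided limma fit (limma 3.58.1 in R 4.3.3; lmFit, eBayes) compared the 2 groups in 14884 genes, without covariates or a filter. Benjamini-Hochberg adjustment ran over all 14884, with calls at 0.05, and intervals cover 95%. The code was tested on simulated arrays.

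The CD-numbered genes, role groups and other lists were chosen with earlier results of these data known. The naming rule took every member past the threshold, members with a difference of at least 0.3, the 5 with the highest mean, up to 2 further members per role with the smallest p, and up to 4 genes per other list. Other members and list genes, among them LY86, PVR and NECTIN1, and neighbours were named after their values were seen. Promoters came from RefSeq (GRCh38.p14). Alternatives covered normalization, probe sets, dim genes, variance priors, array weights, thresholds, the replicate number as a block, and each array left out. The main fit did not pair arrays by replicate number. The values of the remaining leukocyte marker that rose are not reported here.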

Additional observations from a re-analysis of the deposited data

How the results depend on the processing

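Of the 71 genes, 11 to 15 rose and 3 to 4 fell with any single array left out. Without the dimmer 50% of genes, 23 of the 71 were still tested and 9 rose. With a fold of at least 1.5 also required, 9 rose and 1 fell, beside 411 and 452 of all genes. At an adjusted p under 0.01, 852 and 1226 of all genes passed, and 10 and 3 of the 71. In the other alternatives the CD-numbered counts stayed within 12 to 16 rises and 3 to 5 falls. Over all genes, leaving out 1 array gave 1126 to 1553 rises and 1514 to 2048 falls. Median centring gave 1320 rises and 2457 falls over all genes, and 14 and 5 of the 71. The labels do not pair same-numbered arrays. The deviations of such arrays from their group means correlated at -0.0195, -0.0549 and -0.00558. With 3 arrays per group, these values cannot tell whether same-numbered arrays shared an infection or a batch. With the replicate number as a fixed replicate block, 12 of the 71 rose and 4 fell, and as a random replicate block 15 and 4. With the fixed block CD1D, CD70, CD72 and PRRX1 no longer passed. CD226 passed as lower with median centring or repeated quantile normalization, CD53 as higher with array weights, and CD99 as lower with a trended prior or without the dimmest genes. Without the dimmest genes CD5L, CD300C and CD47 also passed under at least 1 of the limits tried, and CD5L did with a trended prior. No named gene that had passed changed direction in any alternative. The level of signal limits the low tertile, where folds are compressed.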
